A study of Mus musculus with 14 samples.

Results

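Within the CB cross, 3 XX embryonic stem (ES) cell lines were compared with 3 lines labelled XY. ES cells are pluripotent cells grown from the inner cell mass of the blastocyst, and each line came from a separate blastocyst. CB stands for a CAST/EiJ mother and a C57BL/6J father, so that the single X of CB XY cells is the CAST/EiJ one, while CB XX cells carry 1 X of each strain. Where the labels hold, strain and X number are therefore linked on this chromosome, and their parts cannot be told apart within this cross. Of the series' 14 lines, the other 8 are BC lines of the reverse cross (C57BL/6J mother, CAST/EiJ father), with 3 XX, 3 XY and 2 XO lines. No line carried an added treatment. All were kept in serum and LIF on feeder fibroblasts, most of which were removed in 2 settling steps before RNA was taken. The CB XX lines are numbered 1 to 3 by the order of their columns, since the column numbers are not those of the labels.

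Genes entered when their value was at least 10 in at least 3 of the 6 CB lines, which held for 15403 of 23298 genes. A value is the number of reads of a gene, which the authors had scaled to a common depth. At the border of this rule, 418 genes reached 10 in 2 lines only and 360 in exactly 3, whereas 13987 reached it in all 6. For 4 genes (*Cdk8*, *Cmss1*, *Eef1a1* and *Filip1l*) every line of a group is listed at 0 although other lines reach 100 or more. These 4 were set aside, and 15399 genes were tested.

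In most female mammalian cells 1 X chromosome is silenced, and the noncoding RNA Xist coats the silent X. ES cells with 2 X chromosomes have not yet gone through X inactivation and read both, so that their X-linked RNA can exceed that of XY cells. Mouse XX ES cells are also known for low DNA methylation and for altered signalling through the FGF-ERK pathway, a kinase cascade that drives ES cells out of naive pluripotency. Germline genes, which serve meiosis and egg or sperm formation, are silenced in somatic cells largely by methylation of their promoters.

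The labels were examined first through Y-linked RNA. *Uty*, which codes for a histone demethylase-like protein, had a value of 1149 in CB XY 1, of 19.6 in CB XY 2 and of 45.4 in CB XY 3, against 12.8, 45.1 and 57.8 in the CB XX lines. *Ddx3y*, an RNA helicase gene, had 1084 in CB XY 1, 27.0 in CB XY 2 and 126 in CB XY 3, against 49.7, 163 and 196 in the CB XX lines. CB XY 1 alone stood above the XX lines for both genes, and CB XY 2 and CB XY 3 lay within or below the XX range. *Eif2s3y*, a translation factor gene, gave the same picture, with 76.7, 2.46 and 32.5 in the XY-labelled lines and 12.8 to 51.2 in the XX lines. In the BC cross, *Uty* was at 945 to 2088 in the XY lines, 66.1 to 196 in the XX lines and 15.2 to 30.6 in the XO lines. *Ddx3y* was at 1115 to 2268 in the BC XY lines and 328 to 1024 in the BC XX lines. *Eif2s3y* did not separate the BC groups, with 40.8 to 255 in XY lines and 102 to 317 in XX lines. *Kdm5d*, a further Y-linked gene, did not set CB XY 1 apart, at 22.2 against 7.11 to 29.3 in the CB XX lines. For *Uty*, *Ddx3y* and *Eif2s3y*, CB XY 2 and CB XY 3 thus held no more RNA than the CB XX lines, which lack a Y. Which parental X is carried by CB XY 2 and CB XY 3 was not tested. The counts over all genes and the X-linked level are also given without these lines. So are the medians of the germline, X-Y partner and primitive streak lists, but the other lists are given with them only.

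The 6 lines also differed in depth. At the read value implied by the steps between low values, the CB XX lines held 21559636 to 32001089 reads and the CB XY-labelled lines 11907090 to 21896713 reads, so that 3 reads correspond to a value of 2.67 to 7.37. Defining ES cell genes were high in every CB line, among them *Pou5f1* at 19820 to 29390, *Sox2* at 7119 to 15880 and *Nanog* at 5909 to 12130. The summed value of 33 fibroblast markers was 63081 to 115077 in the CB XX lines and 63226 to 92504 in the XY-labelled CB lines, and 0 of the 32 that were tested differed. In BC XX lines the same sum was 249576 to 566315. In bulk RNA, fewer cells of a type and less RNA per cell cannot be told apart.

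Germline genes were among the autosomal genes with the largest differences, and their promoters are shown ahead of their values. The 4 members of a germline and meiosis list that passed the test, *Hormad1*, *Mael*, *Smc1b* and *Aurkc*, are printed here with 250 bases before the gene's start and 50 after it, as given by RefSeq for GRCm38.p6. Capitals mark CACGTG, a palindrome that reads alike on both strands and forms the core of the E-box bound by several basic helix-loop-helix proteins. The windows are chr3:95559427-95559726 (plus strand) for *Hormad1*, chr1:166238695-166238994 (minus strand) for *Mael*, chr15:85131908-85132207 (minus strand) for *Smc1b* and chr7:6995135-6995434 (plus strand) for *Aurkc*.
Hormad1: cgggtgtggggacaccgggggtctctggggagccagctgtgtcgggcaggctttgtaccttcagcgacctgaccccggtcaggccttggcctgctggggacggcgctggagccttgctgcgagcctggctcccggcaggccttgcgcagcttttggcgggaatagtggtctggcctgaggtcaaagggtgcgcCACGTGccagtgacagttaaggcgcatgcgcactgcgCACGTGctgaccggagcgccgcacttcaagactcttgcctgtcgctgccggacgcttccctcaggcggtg
Mael: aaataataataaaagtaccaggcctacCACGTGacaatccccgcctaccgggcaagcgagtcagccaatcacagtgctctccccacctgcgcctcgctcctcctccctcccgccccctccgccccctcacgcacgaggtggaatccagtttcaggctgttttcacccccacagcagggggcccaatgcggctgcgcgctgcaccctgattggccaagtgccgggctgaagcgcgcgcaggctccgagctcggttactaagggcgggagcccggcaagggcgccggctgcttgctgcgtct
Smc1b: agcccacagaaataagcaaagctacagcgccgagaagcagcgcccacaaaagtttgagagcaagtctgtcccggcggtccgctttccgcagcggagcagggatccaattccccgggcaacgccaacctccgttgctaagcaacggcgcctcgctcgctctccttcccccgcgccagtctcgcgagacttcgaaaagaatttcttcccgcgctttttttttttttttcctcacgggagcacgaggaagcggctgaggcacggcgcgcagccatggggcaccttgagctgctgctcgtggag
Aurkc: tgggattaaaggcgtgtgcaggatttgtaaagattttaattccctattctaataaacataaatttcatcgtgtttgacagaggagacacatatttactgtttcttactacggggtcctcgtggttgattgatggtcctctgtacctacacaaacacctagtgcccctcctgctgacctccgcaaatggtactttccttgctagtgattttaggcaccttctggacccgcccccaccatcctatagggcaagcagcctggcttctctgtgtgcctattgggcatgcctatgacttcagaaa

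*Hormad1* held 2 copies of CACGTG, starting 57 and 20 bases before the gene's start, and *Mael* held 1, starting at -223. The windows of *Smc1b* and *Aurkc* held none. The hexamer was present in 12 of the 25 germline promoters that could be matched (48.0%). It was present in 1120 of 11186 promoters of tested genes (10%), or 1957 of all 27025 promoters in the table (7.24%). Among matched promoters of autosomal calls it was in 3 of 17 higher in XX (17.6%) and 3 of 36 lower (8.33%). For X-linked calls this was 12 of 76 (15.8%). Whether the hexamer goes with the change was not tested. CpG dinucleotides, the usual sites of DNA methylation in mammals, numbered 24 in *Hormad1*, 24 in *Mael*, 29 in *Smc1b* and 6 in *Aurkc*, against a median of 20 over tested genes and also of 20 over the germline list. These are descriptions of letters in a window, and neither binding nor methylation was measured here.

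Across the genome, 152 of 15399 genes differed between CB XX and CB XY lines at an FDR of 0.05 (limma on log2(value + 5), Benjamini-Hochberg adjustment over all genes), which is 0.987% of the genes tested. Of these, 106 rose in XX lines (0.688%) and 46 fell (0.299%). For each of the 152, all lines of one group lay above all lines of the other. Over all genes, every XX line lay above every XY-labelled line in 1823 genes (11.8%) and the reverse held for 1802 (11.7%). None passed an FDR of 0.01 in limma, with 2612 genes at an unadjusted p of 0.05 and a lowest adjusted p of 0.0366.

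These counts rest on few lines. No gene was called without CB XX 2 or without CB XY 2, 1 without CB XY 1 and 40 without CB XY 3, and 6 with both of the doubtful XY-labelled lines (2 and 3) left out. In that last fit, with CB XY 1 as the only XY line, all 152 genes kept the sign of their log2 fold change, but only *Mageb16*, *Hormad1* and *Smc1b* of the 152 were called (limma adjusted p 0.0314 to 0.528 over the 152). *Dnmt3b*, *Dusp6*, *Sp5*, *Cdkn1c*, *Phlda2* and *Aurkc*, described further on, then had limma adjusted p values of 0.192, 0.293, 0.192, 0.202, 0.222 and 0.202. The split of 106 higher and 46 lower genes also moved with single lines, to 59 and 65 without CB XX 1, 102 and 98 without CB XX 3, and 34 and 6 without CB XY 3. A fit of all 14 lines in 5 groups, whose shared spread has more degrees of freedom, called 566 of 15389 genes (3.68%) for the same CB comparison, 331 higher and 235 lower in XX lines, and 114 at an FDR of 0.01. Of the 152 genes, 144 were also called in that fit, and without CB XY 2 and CB XY 3 it called 132 genes. Fold changes here are XX over XY on the log2(value + 5) scale, which understates the change of genes with low values.

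X-linked genes made up the larger share of the calls. Of 562 X-linked genes tested, 83 (14.8%) were called, all of them higher in XX lines, against 68 of 14484 autosomal genes (0.470%), of which 23 were higher and 45 lower. The median log2 fold change was 0.73 over X-linked genes and -0.03 over autosomal ones. The quartiles of the X-linked genes were 0.37 and 1.00, 493 of the 562 (87.7%) were above 0, and 140 (24.9%) reached 1 or more, as did 289 autosomal genes (2.0%). A fold of 2, or 1 on the log2 scale, lay within the 95% interval of 365 X-linked genes and no change within that of 220.

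**Figure D1:**
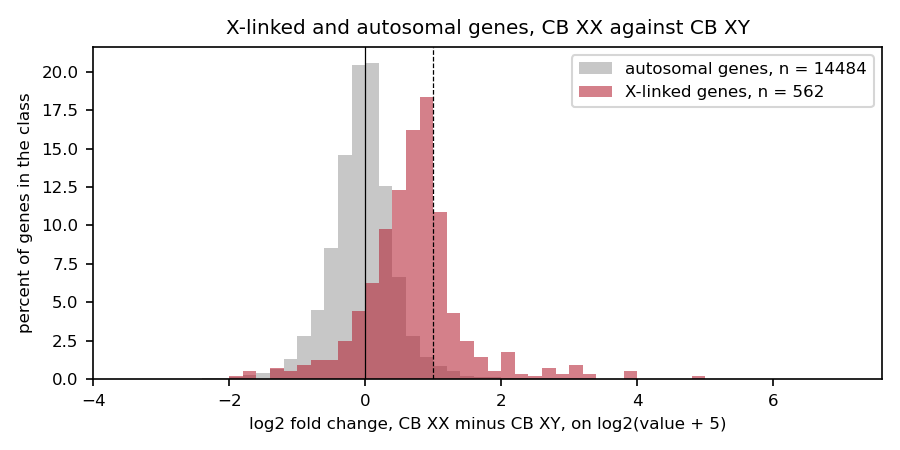
Distribution of log2 fold changes, CB XX minus CB XY on log2(value + 5), as percent of genes in bins of 0.2 for 562 X-linked genes (red) and 14484 autosomal genes (grey). The solid line marks no change and the dashed line a fold of 2. The X-linked genes are centred at 0.73 and the autosomal genes at -0.03.

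Taken per line, the median X-linked gene stood at 0.28, 0.38 and 0.47 above its mean over the 6 lines in CB XX 1, 2 and 3, on the log2 scale. It stood at -0.41 in CB XY 1, -0.48 in CB XY 2 and -0.17 in CB XY 3. The groups did not overlap, although CB XY 3 lay nearer to the XX lines than the others labelled XY. The difference in level of 0.73, or 1.66-fold, gave p = 0.1 in an exact permutation test (two-sided, n = 3 and 3), the smallest p that 3 against 3 lines allow. With CB XY 1 as the only XY line the difference was 0.79. Along the chromosome, windows of 20 Mb (mm9) had medians of 0.52 to 0.86 over 23 to 88 genes each, all above 0.

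**Figure D2:**
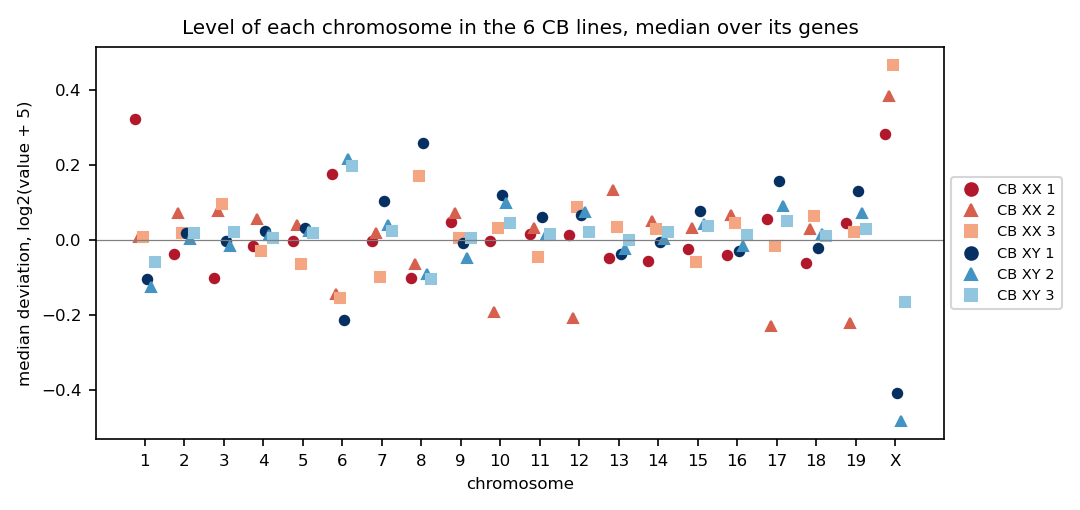
Median deviation of the genes of each chromosome from their mean over the 6 CB lines, on log2(value + 5), for each line (red shades XX, blue shades labelled XY). On the X, XX lines sit at 0.28 to 0.47 and the XY-labelled lines at -0.48 to -0.17. Single lines also stand apart on some autosomes, such as CB XX 1 at 0.32 on chromosome 1.

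Some autosomes shifted as a whole in single lines, which bears on genes there. On chromosome 1, CB XX 1 had a median of 0.32 while the other 5 lines were at -0.12 to 0.01. On chromosome 6, CB XX 1, CB XY 2 and CB XY 3 were at 0.18, 0.22 and 0.20 and the other 3 lines at -0.21 to -0.14. CB XY 1 and CB XX 3 were higher on chromosome 8, at 0.26 and 0.17, and CB XX 2 was lower on chromosomes 10, 12, 17 and 19, at -0.23 to -0.19. On chromosomes 1, 7, 10 and 15 the levels of the groups did not overlap, and the median log2 fold change there was 0.21, -0.10, -0.15 and -0.08. With each autosome centred within each line, 182 genes were called.

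The 6 X-linked genes with the largest changes among the called genes had log2 fold changes of 2.04 to 3.28. *Mageb16* (mm9 chrX:76868570-76916774), a member of the MAGE family of cancer-testis antigens, had values of 1411, 1919 and 2331 in the XX lines and 101, 152 and 409 in the XY-labelled lines. Its log2 fold change was 3.28 (SE 0.45, limma adjusted p = 0.0366). *Efhc2*, a gene for a protein with calcium-binding EF-hand motifs, had 287, 134 and 275 against 12.1, 14.7 and 46.7 (3.11, SE 0.48). CB XY 3 was the highest line of its group for both genes, and still below every XX line.

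*Gm364*, a predicted gene, had 152, 241 and 138 in XX lines against 10.1, 12.3 and 28.6 (log2 fold change 3.10, SE 0.39). *Pnma5*, of a family derived from retrotransposon gag genes, had 3727, 2348 and 2041 against 202, 361 and 739 (2.77, SE 0.43). *Fmr1nb*, a cancer-testis gene beside *Fmr1*, had 2034, 2310 and 2288 against 370, 494 and 814 (2.05, SE 0.27). *Tex11*, needed for meiotic recombination in male germ cells, had 240, 375 and 264 against 46.5, 68.8 and 90.9. Its log2 fold change was 2.04 (SE 0.31), and the limma adjusted p of these 4 genes and of *Efhc2* was 0.0366.

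In a list of multicopy X-linked families (Xlr, Rhox, Mage and others) that does not hold *Mageb16*, 13 of 13 tested genes had positive log2 fold changes. The list median was 2.74, against -0.02 over all genes and 0.73 over X-linked genes, but 0 of 13 were called. In limma 12 had an unadjusted p of 0.05, and the fit of 14 lines called 9. The lines differed within groups, as in *Xlr3a*, with 1859 and 1289 in CB XX 1 and CB XX 2, 161 in CB XX 3, and 2.02, 4.91 and 236 in the XY-labelled lines (log2 fold change 4.85, SE 1.34, limma adjusted p = 0.123). CB XY 3 lay above CB XX 3 for this gene, so the groups overlapped. *Xlr5a* also overlapped, with 567, 331 and 30.2 against 2.02, 0 and 48.0. Near-identical copies share reads in these families, so that values of single members are uncertain.

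X-linked genes that have a partner on the Y code for dosage-sensitive regulators of transcription, translation and protein turnover. Of the 9 tested, 5 were called, all higher in XX lines, against 14.8% of all X-linked genes. The list median was 0.85, against 0.73 over all X-linked genes. Without CB XY 2 and CB XY 3, 0 of the 9 were called and the median was 0.83. *Usp9x*, a deubiquitinase gene, had values of 56710, 66750 and 65170 in XX lines and 24850, 28470 and 34170 in the XY-labelled lines, and a log2 fold change of 1.12 (SE 0.16, limma adjusted p = 0.0366). *Kdm6a*, which removes methyl groups from lysine 27 of histone H3, had 6528, 6167 and 7053 against 3369, 3107 and 4003 (0.92, SE 0.14). *Eif2s3x*, a translation initiation factor gene, *Zfx*, a zinc finger transcription factor gene, and *Uba1*, which activates ubiquitin, had log2 fold changes of 1.01, 0.91 and 0.82.

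The remaining members of this list did not pass. *Ddx3x*, an RNA helicase gene, had 50800, 50430 and 40530 in XX lines and 33340, 35570 and 38760 in the XY-labelled lines, and a log2 fold change of 0.39 with a limma adjusted p of 0.226. *Kdm5c*, a demethylase of lysine 4 of histone H3, had a log2 fold change of 0.38 (limma adjusted p = 0.246). For both, the XX lines lay above all XY-labelled lines, by less than for *Usp9x*. *Sox3*, a transcription factor of the neural lineage, had values of 65.4, 62.1 and 69.3 in XX lines and 291, 108 and 109 in the XY-labelled lines (log2 fold change -1.15, limma adjusted p = 0.188). Its order was thus the reverse of that of the chromosome, led by the high value of CB XY 1.

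At the X inactivation centre, 0 of 9 genes were called, with a median of 0.51. *Xist* had 1723, 1445 and 3803 in XX lines and 1113, 1515 and 1611 in the XY-labelled lines, and a log2 fold change of 0.60 (SE 0.34, limma adjusted p = 0.399). The groups overlapped, and CB XX 3 alone stood well above the XY-labelled lines. *Xist* overlaps *Tsix* on the opposite strand, and the strand setting of the counting is not given in the sources used here, so that reads of both genes cannot be told apart. *Tsx*, a gene beside *Xist*, had 66.8, 54.8 and 63.1 against 4.04, 7.37 and 26.0 (log2 fold change 2.13, limma adjusted p = 0.068).

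Few X-linked genes had lower values in XX lines. Of the 562, 11 had a log2 fold change of -1 or less, and 0 were called. In 8 every XY-labelled line lay above every XX line, which held for 11.7% of all genes. In the fit of 14 lines 3 were called lower, *Dgkk*, *Kctd12b* and *Fndc3c1*, which are named after their values were seen. *Kctd12b*, whose product belongs to a family of auxiliary subunits of GABA-B receptors, had 59.7, 60.9 and 205 in XX lines and 305, 278 and 315 in the XY-labelled lines, with a log2 fold change of -1.66 and a limma adjusted p of 0.110 from the 6 lines. *Apln*, which codes for the ligand of the apelin receptor, overlapped between groups, at 35.5, 108 and 180 against 430, 61.4 and 226 (log2 fold change -0.99, limma adjusted p = 0.519). *Srpx* reached a value of 10 in too few lines to enter.

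Among the 23 tested genes of the germline and meiosis list, 4 rose in XX lines (0.688% of all genes) and 0 fell. The list's median log2 fold change was 1.37 against -0.02 over all genes, and it was 0.23 in the BC cross. In 22 the log2 fold change was positive and in 16 every XX line lay above every XY-labelled line, which held for 11.8% of all genes. *Hormad1* (mm9 chr3:95363599-95391593), whose HORMA domain protein marks unsynapsed chromosome axes in meiosis, had values of 1917, 1940 and 1477 in XX lines and 182, 206 and 512 in the XY-labelled lines. Its log2 fold change was 2.70 (SE 0.36, limma adjusted p = 0.0366). *Smc1b* (chr15:84895121-84962387), the meiotic cohesin subunit, had 1325, 1301 and 1063 against 94.9, 224 and 299 (2.69, SE 0.37, limma adjusted p = 0.0366). For both genes CB XY 1 was the lowest line and CB XY 3 the highest of those labelled XY.

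*Aurkc* (chr7:6948154-6955656), an aurora kinase of meiotic cells, had 105, 165 and 97.8 in XX lines and 8.08, 9.82 and 22.1 in the XY-labelled lines (log2 fold change 2.84, SE 0.37, limma adjusted p = 0.0366). *Mael* (chr1:168131516-168168875), which guards germ cells against transposons together with piRNAs, had 205, 346 and 169 against 32.3, 56.5 and 70.1 (2.07, SE 0.37, limma adjusted p = 0.0462). CB XX 1, the line that stands apart on chromosome 1, was not the highest line for *Mael*. Without CB XY 2 and 3, 2 of the 23 genes were called and the median was 1.98. Without CB XX 2, 0 were called with a median of 1.03.

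Other members had high folds and did not pass. *Dazl*, an RNA-binding protein required for germ cell development, had 1086, 3178 and 1143 in XX lines and 176, 459 and 632 in the XY-labelled lines (log2 fold change 2.07, limma adjusted p = 0.0979). *Sohlh2*, a transcription factor of early germ cells, had 1812, 1813 and 682 against 72.7, 275 and 438 (2.63, limma adjusted p = 0.0828). *Sycp1*, of the synaptonemal complex, had 279, 749 and 292 against 30.3, 98.2 and 149 (2.27, limma adjusted p = 0.0958). In all 3 the groups did not overlap, but the lines within a group differed by several fold. The fit of 14 lines called 9 of the 23 genes, all higher.

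**Figure D3:**
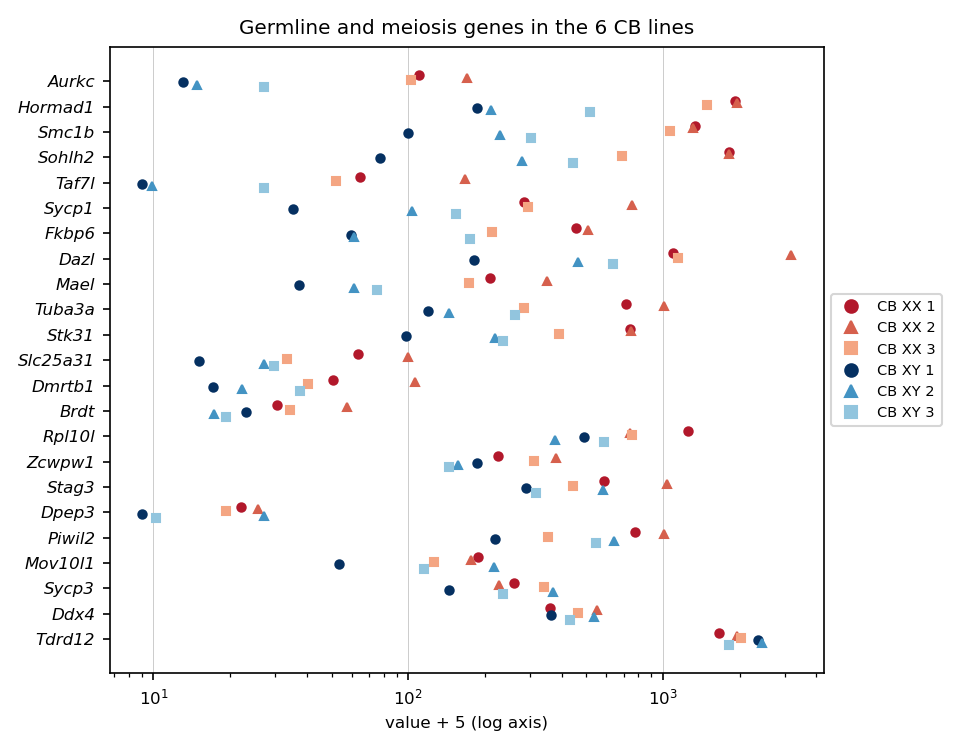
Values plus 5, on a log axis, of the tested germline and meiosis genes in each CB line (red shades XX, blue shades labelled XY). In 16 of 23 genes all XX lines lie to the right of all XY-labelled lines, and CB XY 1 is the lowest line for Hormad1, Smc1b, Aurkc and Mael.

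Other autosomal genes that rose in XX lines included further germline and early embryo genes. *Pramel6* (chr2:87346722-87351029), a Prame-like gene active in the inner cell mass and in naive ES cells, had 206, 106 and 120 in XX lines and 2.02, 9.82 and 31.2 in the XY-labelled lines (log2 fold change 3.20, SE 0.56, limma adjusted p = 0.0462). Its neighbour *Pramel7* had 195, 292 and 288 against 2.02, 19.6 and 62.3 and did not pass (3.52, limma adjusted p = 0.0564). *Hist1h2ba* (chr13:24025637-24026025), a testis-specific histone H2B gene, had 242, 718 and 533 against 109, 56.5 and 74.0 (2.48, SE 0.41, limma adjusted p = 0.0386). For each of these genes the groups were apart, and copies within the Prame-like and histone families may share reads.

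*Dnajc5g*, a testis-expressed relative of a synaptic vesicle chaperone, had 86.7, 36.6 and 59.5 in XX lines against 2.02, 9.82 and 9.09 (2.46, SE 0.43, limma adjusted p = 0.0449). *1700123I01Rik* had 69.7, 39.0 and 47.1 against 10.1, 2.46 and 9.09 (2.25, SE 0.39, limma adjusted p = 0.0433). Values under 7.37 in these sentences amount to a few reads. *Dnajc5g*, and *Atp6v0c-ps2* described next, were below 10 in every XY-labelled line. Both entered through the XX lines alone, so that their direction follows in part from the filter. The largest fitted fold change of all, 7.17 on the log2 scale, belonged to *Atp6v0c-ps2*, a processed pseudogene on chromosome 6 with values of 227, 752 and 2851 in XX lines and at most 1.05 in the XY-labelled lines. Against a floor of 3 reads per line the mean of the XX lines was at least 221-fold higher, a bound that falls to 84.7-fold without CB XX 3. Its parent gene *Atp6v0c*, a proton pump subunit, had 5048, 2700 and 108 in XX lines and 4544 to 5771 in the XY-labelled lines. The line with the highest pseudogene value had the lowest parent value. A processed pseudogene is a near copy of its parent, the assignment of reads between them was not tested, and the call is uncertain.

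Among the genes that fell in XX lines was *Dnmt3b* (chr2:153475186-153513466), which codes for a de novo DNA methyltransferase. Its values were 3923, 2815 and 4403 in XX lines and 15530, 11760 and 12820 in the XY-labelled lines, and a log2 fold change of -1.86 (SE 0.19, limma adjusted p = 0.0366). The lowest XY-labelled line stood well above the highest XX line. Of 21 genes of the DNA methylation machinery, *Dnmt3b* was the only one called, with a median of -0.19 over the list. *Dnmt3a*, the related enzyme, had 4160, 2768 and 4431 against 6370, 5642 and 4637 and did not pass (log2 fold change -0.57, limma adjusted p = 0.212).

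Of 21 feedback and target genes of the FGF-ERK pathway, 1 fell (0.299% of all genes) and 0 rose. The median log2 fold change was -0.34, with 17 negative values. The gene that passed was *Dusp6* (chr10:98725865-98730122), a phosphatase that is induced by ERK and inactivates it, with 1447, 1100 and 1567 in XX lines and 3692, 3355 and 3485 in the XY-labelled lines. Its log2 fold change was -1.37 (SE 0.17, limma adjusted p = 0.0366). *Spry1*, a feedback inhibitor of receptor tyrosine kinases, had 357, 305 and 552 against 660, 894 and 656 (-0.89, limma adjusted p = 0.134). *Dusp9*, an X-linked phosphatase of the same family as *Dusp6*, had the opposite order, with 5369, 5053 and 3468 against 2040, 2611 and 2820 (0.88, limma adjusted p = 0.082).

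Targets of canonical Wnt signalling, a pathway that acts through beta-catenin and is read out by genes such as *Axin2*, had negative log2 fold changes in 13 of 13 cases, with a median of -1.32. In 12 of them every XY-labelled line lay above every XX line (11.7% of all genes), and 1 was called lower (0.299% of all genes; 11 at an unadjusted p of 0.05 and 5 called in the fit of 14 lines). The gene called was *Sp5* (chr2:70312980-70315786), a transcription factor and direct Wnt target, with 64.0, 34.1 and 60.4 in XX lines and 638, 236 and 347 in the XY-labelled lines (-2.76, SE 0.40, limma adjusted p = 0.0366). *Axin2*, a feedback inhibitor, had 331, 190 and 571 against 1753, 872 and 968 (-1.77, limma adjusted p = 0.0814). *Lgr5*, a receptor for R-spondins, had 14.2, 8.53 and 24.0 against 68.7, 29.5 and 50.6 (-1.41, limma adjusted p = 0.136). In these 3 genes CB XX 2 was the lowest line and CB XY 1 the highest.

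Genes of the primitive streak and mesoderm overlap with the Wnt targets, and 13 of 13 had negative values with a median of -1.81, of which *Sp5* alone was called. *T* (brachyury), the defining streak factor and also a Wnt target, had 76.8, 21.9 and 367 in XX lines and 1933, 418 and 1347 in the XY-labelled lines (-3.47, SE 0.89, limma adjusted p = 0.101). *Mixl1*, a homeobox gene of the streak, overlapped between groups, at 32.7, 14.6 and 184 against 648, 88.4 and 270. CB XX 3 was the highest XX line and CB XY 2 the lowest XY-labelled line for both genes. The list median was -3.06 with CB XY 1 as the only XY line, where 0 of the 13 were called.

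Of 18 genes of formative and primed epiblast, the states that follow naive pluripotency, 1 was called and 14 were negative, with a median of -0.93. The call was *Dnmt3b*, which this list shares with the methylation machinery. *Fgf8*, a ligand of the epiblast and streak, had 11.4, 17.1 and 85.3 in XX lines and 640, 157 and 427 in the XY-labelled lines (-3.48, SE 0.69, limma adjusted p = 0.0574). *Fgf5*, a marker of primed epiblast, overlapped between groups, with 156, 134 and 516 against 1185, 454 and 796 (-1.74, limma adjusted p = 0.143). Naive pluripotency genes had a median of 0.27 and 0 of 21 were called. *Prdm14*, which keeps ES cells naive and limits their DNA methylation, had 1434, 1102 and 648 in XX lines and 434, 408 and 541 in the XY-labelled lines (1.13, limma adjusted p = 0.0994). *Tcl1*, a coactivator of the Akt kinase, had 4588, 2259 and 3679 against 1327, 2390 and 1738 and overlapped (0.93, limma adjusted p = 0.158). Of 10 genes that define ES cells, 0 were called and the median was 0.05.

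Epithelial genes, which build tight junctions and keratin filaments, had negative log2 fold changes in 13 of 14 cases, with a median of -1.13, and 0 were called. The fit of 14 lines called 5 of the 14, all lower. *Cldn7*, a tight junction claudin, had 105, 127 and 229 in XX lines and 527, 518 and 357 in the XY-labelled lines (-1.63, limma adjusted p = 0.0555). *Cldn6*, another claudin, had 277, 85.3 and 651 against 1418, 1926 and 1231 (-2.56, limma adjusted p = 0.0824). Both were apart between groups, with CB XX 3 nearest to the XY-labelled lines.

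Single genes of other lineage lists fell as well. *Sox11* (chr12:28025562-28027574), a transcription factor of neural progenitors, had 702, 272 and 742 in XX lines and 3003, 2400 and 2447 in the XY-labelled lines (-2.31, SE 0.35, limma adjusted p = 0.0366), and it was the only call among 8 neural genes, whose median was -0.07. *Lamb1*, a basement membrane laminin subunit, had 3458, 4428 and 4487 against 7216, 8277 and 6822 (-0.86, limma adjusted p = 0.0475) and was the only call among 13 primitive endoderm genes, whose median was 0.22. Among trophoblast genes 0 of 11 were called (median -0.49), and only 1 gene of the 2-cell-like list was tested and not called. The summed value of the trophoblast list was 4759 to 7355 in XX lines and 7631 to 11152 in the XY-labelled lines, and the part of such cells in the results was not tested.

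Further autosomal genes with the largest decreases among the called genes were *Epha1*, *Sema6a*, *Egr4* and *Gna14*. *Epha1* (chr6:42308486-42323267), an ephrin receptor, had 156, 41.4 and 222 in XX lines and 945, 742 and 1119 in the XY-labelled lines (-2.96, SE 0.52, limma adjusted p = 0.0454). *Sema6a*, a transmembrane semaphorin, had 114, 104 and 292 against 1002, 700 and 1058 (-2.54, SE 0.38). *Egr4*, an immediate-early zinc finger gene, had 14.2, 7.31 and 20.4 against 86.8, 73.7 and 90.9 (-2.28, SE 0.34). *Gna14*, a G protein alpha subunit, had 28.4, 18.3 and 40.9 against 121, 162 and 116 (-2.05, SE 0.33). The limma adjusted p of the last 3 was 0.0366, and in all 4 the groups did not overlap. *Epha1* and *Egr4* lie on chromosome 6, whose level was 0.22 and 0.20 in CB XY 2 and CB XY 3 but -0.21 in CB XY 1.

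Imprinted genes are expressed from 1 parental copy. Of 14 maternally expressed ones, 2 fell in XX lines (0.299% of all genes) and 0 rose, with a median of -0.39. Both lie in the Kcnq1ot1 domain of chromosome 7. *Cdkn1c* (chr7:150644255-150646955), an inhibitor of cyclin-dependent kinases, had 142, 172 and 143 in XX lines and 879, 548 and 489 in the XY-labelled lines (-1.99, SE 0.26, limma adjusted p = 0.0366). *Phlda2* (chr7:150687450-150688446), a growth restrainer of the placenta, had 223, 161 and 158 against 945, 592 and 614 (-1.94, SE 0.26, limma adjusted p = 0.0366). Their neighbour *Slc22a18*, a transporter gene, had 11.4, 12.2 and 16.9 against 44.4, 83.5 and 33.8 and did not pass (-1.59, SE 0.37, limma adjusted p = 0.0824). In all 3 the lowest XY-labelled line lay above the highest XX line.

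*Grb10*, an adaptor that restrains growth factor receptors, had 1053, 2084 and 1719 in XX lines and 5366, 941 and 4436 in the XY-labelled lines (-0.86, limma adjusted p = 0.487), so that CB XY 2 fell below all XX lines. Of 22 paternally expressed imprinted genes 0 were called, with a median of 0.23. *Nnat*, a small membrane protein of neurons, had 139, 73.1 and 95.1 against 238, 341 and 305 (-1.51, limma adjusted p = 0.0548). *Mest* had 2152, 1922 and 2739 against 2765, 192 and 2649, and its log2 fold change of 0.99 became -0.27 without CB XY 2.

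**Figure D4:**
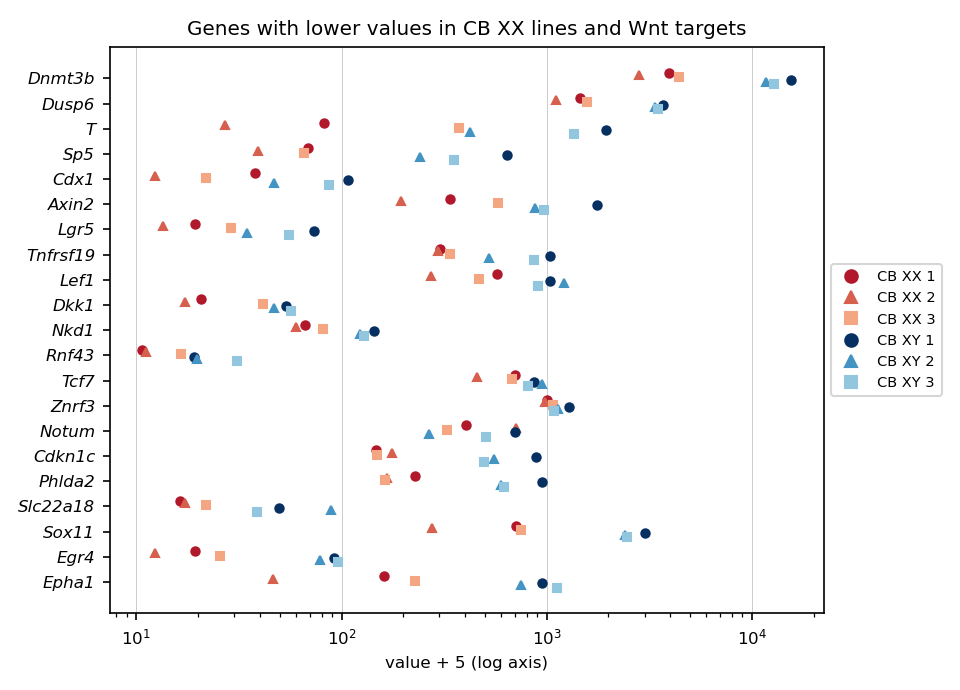
Values plus 5, on a log axis, of genes with lower values in XX lines and of the Wnt targets in each CB line (red shades XX, blue shades labelled XY). Dnmt3b lies at 2815 to 4403 in XX lines and 11760 to 15530 in the XY-labelled lines. The groups do not overlap for Dusp6 and for 12 of the 13 Wnt targets.

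The study selected transcription factors and epigenetic factors as higher in XX or in XY lines using these same samples, so that the direction of the lists is not independent evidence. Of those listed as higher in XX lines, 5 of 46 transcription factors and 4 of 22 epigenetic factors were called here, all higher, with medians of 0.78 and 0.71. Of those listed as higher in XY lines, 5 of 59 and 1 of 20 were called, all lower, with medians of -1.04 and -0.65. *Tcf3*, here the chromosome 10 gene for a basic helix-loop-helix E protein, is on the latter list and had 2928, 2040 and 1433 in XX lines and 4627, 3269 and 2942 in the XY-labelled lines (-0.79, limma adjusted p = 0.190).

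The BC lines give a comparison of the same labels in other samples, with the parental strains reversed. The BC XY lines held *Uty* at 945 to 2088, against 19.6 in CB XY 2 and 45.4 in CB XY 3. The groups labelled XY thus differ in Y-linked RNA between the crosses. In the model of 14 lines, 914 of 15956 genes differed between BC XX and BC XY lines (5.73%). The summed fibroblast markers were at 249576 to 566315 in the BC XX lines and at 67863 to 107602 in the BC XY lines. The fibroblast list had a median log2 fold change of 2.48 in BC and 0.34 in CB. The part of fibroblast RNA in the BC values was not tested. Of the 152 genes called in the CB cross, 144 had the same sign in the BC cross and 59 were called there, while 67.7% of all genes had the same sign. Among the 83 X-linked calls 82 had the same sign and 42 were called in BC, and among the 68 autosomal calls these numbers were 61 and 17. The median X-linked log2 fold change was 0.54 in BC and 0.73 in CB. List medians in BC were 0.23 for germline genes (1.37 in CB) and 0.07 for formative and primed epiblast genes (-0.93 in CB). They were -0.69 for primitive streak genes (-1.81 in CB), -0.59 for Wnt targets (-1.32) and -0.80 for epithelial genes (-1.13).

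**Figure D5:**
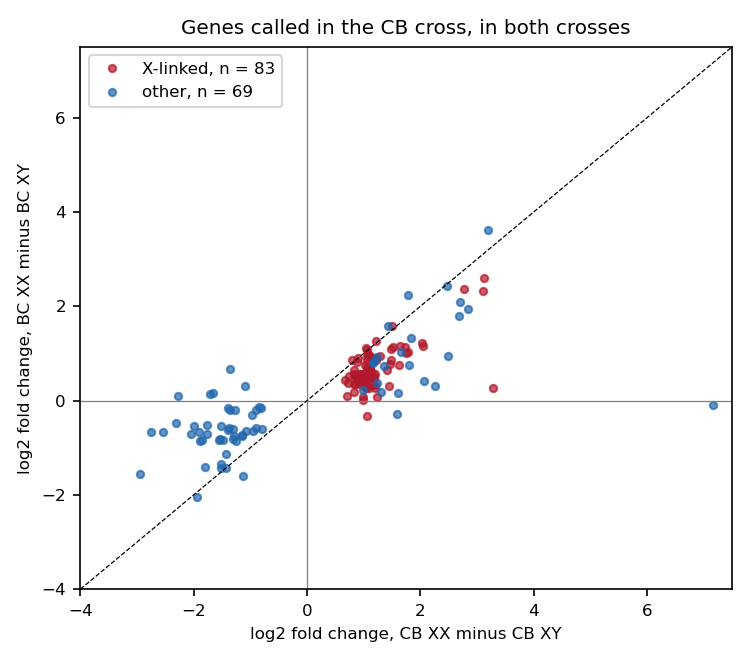
Log2 fold change of the 152 genes called in the CB cross, CB XX minus CB XY (horizontal), against that of BC XX minus BC XY (vertical), on log2(value + 5). X-linked genes are red and others blue, and the dashed line marks equal change. Of these genes 144 have the same sign in both crosses, and Atp6v0c-ps2 at 7.17 in CB lies at -0.10 in BC.

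For single genes the crosses gave various pairs of values. *Phlda2* had log2 fold changes of -1.94 in CB and -2.04 in BC, and *Pramel6* had 3.20 and 3.62. *Dnmt3b* had -1.86 and -0.84, *Dusp6* -1.37 and -0.19, *Sox11* -2.31 and -0.48, and *Cdkn1c* -1.99 and -0.55. *Mageb16* had 3.28 in CB and 0.26 in BC. None of these 7 differences between the crosses passed its own test.

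That test, of the XX against XY change in CB minus that in BC, called 12 of 15956 genes (0.0752%), with 1447 at an unadjusted p of 0.05. Of the 152 genes only *Atp6v0c-ps2* and *Cnn2* were among the 12. *Cnn2*, an actin-binding calponin, had 1242, 1467 and 1583 in CB XX lines and 3134, 2866 and 3167 in the XY-labelled CB lines, and 3734 to 3949 in BC XX against 2895 to 3398 in BC XY lines. It thus fell in CB XX lines, with a log2 fold change of -1.10, while its value in the BC cross was 0.31 (difference -1.41, SE 0.19, limma adjusted p = 0.0233). Several of the 12 are genes of muscle, tendon or extracellular matrix that are high in BC XX lines, such as *Itga11*, a collagen-binding integrin, at 592, 1464 and 1887 there and at 41.2 to 135 in the CB lines. Those BC XX lines also carry the highest fibroblast marker sums. With the mean fibroblast marker level as a covariate 13 genes were called, 0 of them among the 12. *Myl9*, one of the 12, is itself among the fibroblast markers, and the marker level largely follows the BC XX group. The covariate therefore cannot tell fibroblast RNA from a change in the BC XX lines, and the cause was not tested.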

How the data were processed

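RNA-seq of 14 mouse ES cell lines was used, of which 6 are CB lines. Per the labels and the paper's methods, total RNA was made into stranded libraries, whose reads were aligned to mm9 with TopHat2 and processed with Cuffdiff. The deposited values are a read signal per gene that the authors scaled to a common depth. In the CB lines 98.8% to 99.2% of the low values (0.2 to 40) are whole multiples, within 0.02 of a step, of 1 step (0.889 to 2.46), taken as 1 read. Genes were placed on mm9 (NCBIM37).

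All tests ran on log2(value + 5). CB XX and CB XY lines were compared with limma 3.58.1 in R 4.3.3 (trended variance, Benjamini-Hochberg adjustment over all genes tested, FDR 0.05), on the 6 CB lines, and crosses by an interaction in a model of 5 groups on 14 lines. The test for read counts that had been intended was not run. It required whole reads for nearly all genes, and these could not be recovered. The share of whole multiples given above covers low values only. Lines are separate lines from single blastocysts. Libraries were made in batches to which the sources used here do not assign lines. Tables and figures were made with Python 3.11.15, pandas 2.3.3 and matplotlib 3.10.9. The limma fit of the 6 CB lines was also run on simulated counts. These held no chromosome-wide shifts of single lines, and their outcome is not used to back the calls.

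Named genes are the Y-linked genes and *Xist*, the 8 autosomal genes with the largest change in each direction and 6 X-linked genes among those called without overlap of lines, list members that were called and up to 4 others per list, the 5 largest differences between crosses in each direction, and genes that the study names for this comparison. The members, lists and tests were chosen with earlier results of these data known. Alternatives changed the filter, pseudocount, scaling, lines, chromosome level and fibroblast level. Those with genes listed at 0 kept, with lines left out of the 14-line model or with that model centred per autosome were chosen after seeing the data, as were the X level and the cross difference without CB XY 2 and CB XY 3.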

Additional observations from a re-analysis of the deposited data

Results flagged for a closer look

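The XX against XY change differed between the crosses for 12 genes (limma interaction, Benjamini-Hochberg adjustment over 15956 genes), given as CB minus BC on the log2(value + 5) scale. The difference was higher in CB for 3 genes, *Atp6v0c-ps2* (7.27), *Zfy2* (2.61) and *Mfsd2b* (2.59). *Atp6v0c-ps2* is a near copy of its parent gene, and the assignment of reads between them was not tested. *Zfy2*, a Y-linked zinc finger gene, is listed at 0 in all 6 CB lines, CB XY 1 included, and at 15.0, 21.6 and 48.9 in the BC XY lines. Its relative *Zfy1* went the other way, at 10.1 in CB XY 1, 0 in the other CB lines and 0.669 to 1.25 in the BC XY lines. The assignment of reads between these relatives was not tested. *Mfsd2b*, a sphingolipid transporter of blood cells, had 160 to 269 in the lines labelled CB XY and 225 to 365 in CB XX lines, against 311 to 478 in BC XY and 68.8 to 91.0 in BC XX lines.

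For the other 9 genes the change was lower in CB than in BC. They are *Cnn2* (-1.41), *Serpinh1* (-1.70), *Ttc28* (-1.96), *Pdzrn3* (-2.53), *Gpr149* (-2.77), *Myl9* (-3.34), *Myom1* (-3.35), *Tnmd* (-3.59) and *Itga11* (-3.76). In all 9, BC XX lines have the highest mean of the 5 groups, and those lines have a fibroblast marker sum of 249576 to 566315 against at most 115077 in the CB lines. *Cnn2* also has its lowest values in CB XX lines.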

How the results depend on the processing

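Count tests on recovered reads were not run. No paired analysis was possible because the columns of the CB XX lines do not carry the numbers of the labels, and each line is an independent line. The 152 calls (83 X-linked, 68 autosomal, 0 at an FDR of 0.01) became 0 (0 X-linked, 0 autosomal, 3031 at an unadjusted p of 0.05) without the filter on low values, 566 (204, 357 and 114 at 0.01) with 14 lines in 5 groups, and 562 (205, 352 and 125) when that model was centred per autosome. Without both CB XY 2 and CB XY 3 they became 6 (2, 4 and 1), where CB XY 1 is taken to vary like the XX lines, and the 14-line model then gave 132 with 9 at 0.01. With genes listed at 0 kept, 3 passed 0.01. Leaving out 1 CB line at a time, in either model, gave 0 to 629 calls, 0 to 180 X-linked, 0 to 447 autosomal and 0 to 141 at 0.01. In the 6-line fit the counts were 124, 0 and 200 without CB XX 1, 2 and 3, and 1, 0 and 40 without CB XY 1, 2 and 3.

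The other settings gave 129 to 188 calls. The share of calls higher in XX lines was 69.7%, 58.3% with the fibroblast level as a covariate, 58.5% with 14 lines, 47.6% without CB XX 1, 51% without CB XX 3 and 85% without CB XY 3. The difference in X-linked level kept its direction in every setting, at 0.67 to 0.83 without 1 line. The 12 differences between crosses became 2 with 12 lines only, 2 without CB XY 2 and CB XY 3, and 0 to 25 without 1 CB line (2, 0 and 25 without CB XX 1, 2 and 3, and 1, 15 and 0 without CB XY 1, 2 and 3). *Mest* (0.99) moved to 1.64 without CB XY 1 and turned to -0.27 without CB XY 2 and to -0.30 without both lines. Of the 96 genes followed across settings, which were limited to larger changes, no other turned its direction. Other named genes, such as *Ddx3x*, *Kdm5c*, *Dnmt3a* and *Dazl*, were not among the 96. The cause of these moves was not tested beyond the smaller number of lines or genes. At these depths, values under 7.37 are at most 3 reads in the shallowest CB line.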
